A study of Homo sapiens with 6 samples.

Results

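The region is the stretch of human 28S rRNA between positions 1901 and 2500. It was taken by position alone, as all rows of the deposited 28S tables in that span with 100 or more crossing reads in the CMC and in the mock library of a pair. It holds 600 of the 6939 positions of 18S and 28S rRNA together, and all 600 passed the read minimum in each of the 3 pairs. The bases are 221 G, 186 C, 104 A and 89 U. None of the 64 pseudouridines of 28S listed from general knowledge and found on a U of the reference lies inside it, and the nearest is at position 2508.

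Long RNA from the human embryonic kidney line HEK293T/17 was broken into fragments, which were treated with CMC or mock-treated, given an adapter at the 3′ end and copied into cDNA. The 6 libraries were HIV RT with magnesium on CMC-treated and on mock-treated RNA, SuperScript III RT with manganese on CMC-treated and on mock-treated RNA, and SuperScript III RT with magnesium on CMC-treated and on mock-treated RNA. All 6 share this cell line. There was 1 library per group, so no difference has a replicate check. The libraries held between 21206954 and 47002169 stops over 18S and 28S, of which 14.2% to 15.6% of those on 28S fell in the region, which is 11.8% of the positions of 28S.

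CMC, a carbodiimide, puts a large adduct on the base-pairing face of U, G and pseudouridine, and pseudouridine holds it longest when the RNA is later exposed to alkali. A reverse transcriptase that meets the adduct can stop, which ends the cDNA there, or read through it and put in another base. A stretch without listed pseudouridines therefore shows what CMC and the 3 enzyme conditions do at ordinary bases of a long, folded and very G+C-rich RNA. Much of the length of human 28S rRNA is in expansion segments, G+C-rich insertions that are absent or short in bacteria, and the middle of the region lies in the area of the one called ES15.

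The G+C-rich sequence in the middle of the region, where coverage was lowest, is shown first. A position was called G+C-rich when the 51-nt window centred on it held at least 80% G and C, and the 178 such positions formed 1 unbroken stretch, shown as the deposited tables give it, 5′ to 3′, with its 17 U in capitals.
G+C-rich stretch, positions 2095 to 2272: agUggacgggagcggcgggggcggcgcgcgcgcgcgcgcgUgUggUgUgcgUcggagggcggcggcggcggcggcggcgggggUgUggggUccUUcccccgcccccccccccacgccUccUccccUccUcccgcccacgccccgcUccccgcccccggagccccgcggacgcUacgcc
It contains an alternation of C and G over 16 nt from position 2119, a GGC repeat over 21 nt from position 2152 and a run of 11 C from position 2196, its longest run of 1 base. The C run is set in capitals here with 12 nt on either side.
C run, positions 2184 to 2218: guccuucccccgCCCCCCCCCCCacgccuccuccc

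The U whose stops rose most in the region were largely those followed by A, and all 13 such U are shown with 7 nt on either side, the U and its A in capitals, so that the shared dinucleotide and the differing surroundings can be seen.
U1906: gccggguUAaggcgc
U1957: ugguugaUAuagaca
U1959: guugauaUAgacagc
U1997: aauccgcUAaggagu
U2008: gagugugUAacaacu
U2032: aaucaacUAgcccug
U2070: gggcccaUAcccggc
U2267: cggacgcUAcgccgc
U2281: cgacgagUAggaggg
U2312: ugaagccUAgggcgc
U2359: uugguggUAguagca
U2362: gugguagUAgcaaau
U2369: uagcaaaUAuucaaa

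Coverage was the first measurement. A crossing read is one that copied through a position, and the count of such reads is its coverage. Median coverage of the region was 88486 reads in the HIV RT CMC library and 249235.5 in the HIV RT mock library. It was 115046.5 with CMC and 191597 in the mock library for SuperScript III with manganese, and 100905 with CMC and 134901.5 in the mock library with magnesium. Each of these medians was above that of the rest of 28S, by 1.55 times with CMC and 1.27 times in the mock library for HIV RT, 1.71 and 1.27 times with manganese, and 1.65 and 1.17 times with magnesium.

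Within the region the G+C-rich stretch was read far less often than its surroundings in all 6 libraries. Its median coverage was 9115 reads against 111053.5 at the other 422 positions in the HIV RT CMC library, and 19552.5 against 294471 in the HIV RT mock library. The fold between them, other positions over the G+C-rich stretch, was 12.2 with CMC and 15.1 in the mock library for HIV RT, 10.2 and 13.7 with manganese, and 10.8 and 14.6 with magnesium. The size of this gap depends on the definition. At 70% G and C the coverage of G+C-rich over other positions was 0.249 with CMC and 0.233 in the mock library for HIV RT, 0.293 and 0.188 with manganese, and 0.227 and 0.176 with magnesium. The rest of 28S was also less covered at its G+C-rich positions, and the ratio of G+C-rich to other positions was compared. For HIV RT it was 0.0821 with CMC and 0.0664 in the mock library in the region, beside 0.133 and 0.0592 in the rest of 28S. With manganese it was 0.0982 with CMC and 0.0729 in the mock library in the region, beside 0.127 and 0.0338 in the rest. With magnesium it was 0.0929 and 0.0684 in the region, beside 0.117 and 0.0308 in the rest.

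The lowest point was the C run. C2201 had 548 crossing reads with CMC and 937 in the mock library for HIV RT, and 831 and 421 with manganese. C2202 had 689 crossing reads with CMC and 230 in the mock library for SuperScript III with magnesium. In the CMC libraries of SuperScript III the lowest were C2202 with 798 reads with manganese and C2204 with 617 with magnesium. Other C of the run were also low, among them C2200 with 611 reads with CMC and 1017 in the mock library for HIV RT. C2199 had 939 and 448 with manganese, and C2203 had 660 and 246 with magnesium. The median of the positions outside the stretch was 203 times the lowest coverage with CMC and 314 times in the mock library for HIV RT, 188 and 543 times with manganese, and 217 and 710 times with magnesium. By these folds the dip was deeper in the mock library than in the CMC library of each pair. In reads, both SuperScript III mock libraries had fewer at the bottom than their CMC partners. The HIV RT mock library, which was also read more outside the stretch, had more than its partner.

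The dip was gradual on its 5′ side and steep on its 3′ side. For HIV RT the median coverage in consecutive windows of 50 nt was 93284 with CMC and 210003 in the mock library from position 2051, 23675 and 66662.5 from 2101, 4758 and 10294.5 from 2151, 7079.5 and 11109.5 from 2201, and 67686 and 144299.5 from 2251. The window from 2151 had a G+C content of 90%, and that from 2351 had 44%. Over the 600 positions Spearman's correlation of coverage with the G+C of the 51-nt window lay between -0.88 and -0.72 in the 6 libraries, a description only, since neighbouring positions share reads and windows.

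**Figure D1:**
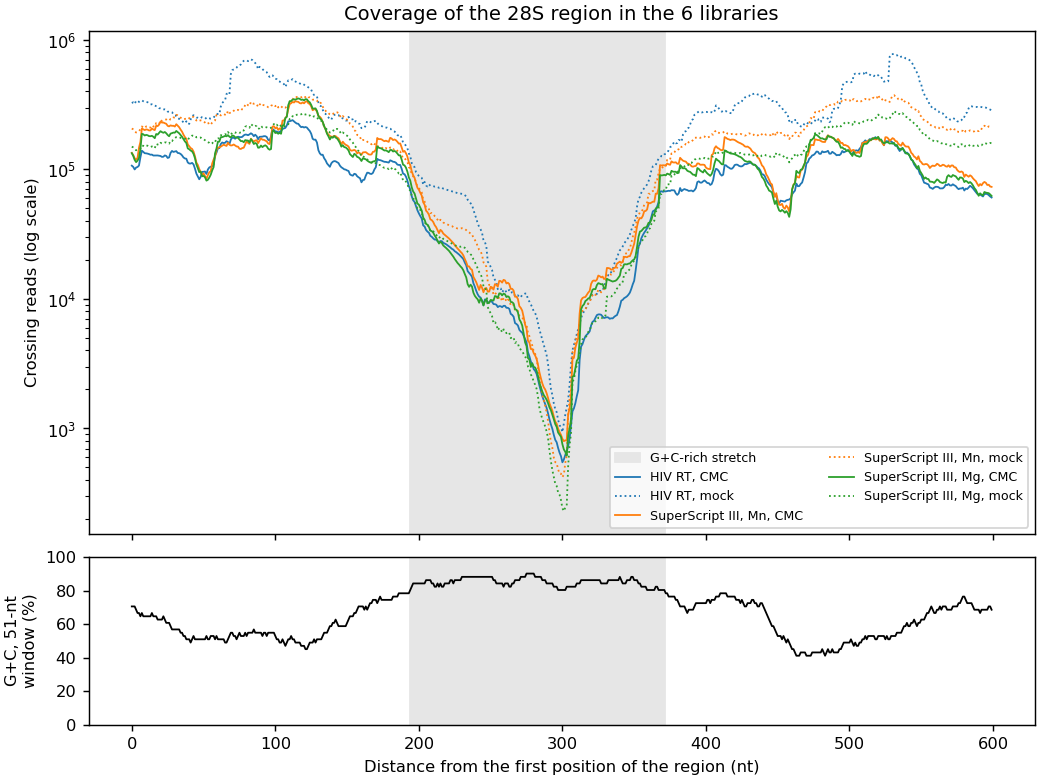
Coverage of the region by library: crossing reads per position on a log scale (top; solid lines CMC, dotted lines mock) and the G+C share of the centred 51-nt window (bottom) against the distance from the first position of the region. All 6 libraries fall by a fold between 188 and 710 from the median outside the grey G+C-rich stretch to their lowest position.

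Without CMC the conditions differed more in mutation than in stops. The mutation share is mismatched reads divided by crossing reads, in percent. Its median over the region in the mock libraries was 0.670% for HIV RT, 0.424% for SuperScript III with manganese and 0.0902% with magnesium. The stop share is stops divided by the sum of stops and crossing reads, in percent, and its mock median was 2.09%, 2.12% and 1.82%. A stop is the end of a read, and because the RNA was broken before it was copied, stops do not separate a halted enzyme from the end of an RNA fragment.

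Apart from G2261, which lies further 3′, the positions most often misread without CMC sat in and around the C run, where reads were fewest. G2195, the G between 2 runs of C, was misread in 22.2% of reads with CMC and 10.8% in the mock library for HIV RT, in 17.5% and 13.3% with manganese, and in 24.1% and 19.1% with magnesium. Most of these reads had C, 20.8% of all reads with CMC and 9.99% in the mock library for HIV RT, and 23.2% and 17.3% for SuperScript III with magnesium. U2189, which is followed by 5 C, was likewise read mostly as C, with a mutation share of 9.59% with CMC and 8.12% in the mock library with magnesium. C2205 near the end of the run was misread in 23.7% with CMC and 20.0% in the mock library with manganese, mostly as U, but in 6.32% and 7.73% with HIV RT and in 4.09% and 3.33% with SuperScript III and magnesium. In HIV RT 2 more C of the run were high, C2204 with 10.8% with CMC and 9.94% in the mock library, and C2203 with 6.89% and 9.71%. G2182 was read as U in 5.52% of reads with CMC and 9.54% in the mock library with magnesium. G2261 was misread in 7.50% with CMC and 9.50% in the mock library with manganese, beside 0.594% and 0.609% with HIV RT and 1.69% and 2.41% with magnesium. These bases were thus misread in both libraries of a pair, and reads of different rDNA copies are not separated in the tables.

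Mock stops were also highest in the C run, most of all with SuperScript III. C2206, its last C and so the first that the enzyme meets, had a stop share of 28.1% with CMC and 30.0% in the mock library for HIV RT, 54.4% and 52.6% with manganese, and 58.0% and 65.4% with magnesium. C2203 had 40.8% with CMC and 54.7% in the mock library with manganese, and 33.2% and 52.6% with magnesium, but only 12.8% and 16.9% with HIV RT. In HIV RT the highest mock stop share of the region was instead at G2427, far outside the stretch, and the next was C2205 of the run, with 26.5% with CMC and 36.7% in the mock library.

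**Figure D2:**
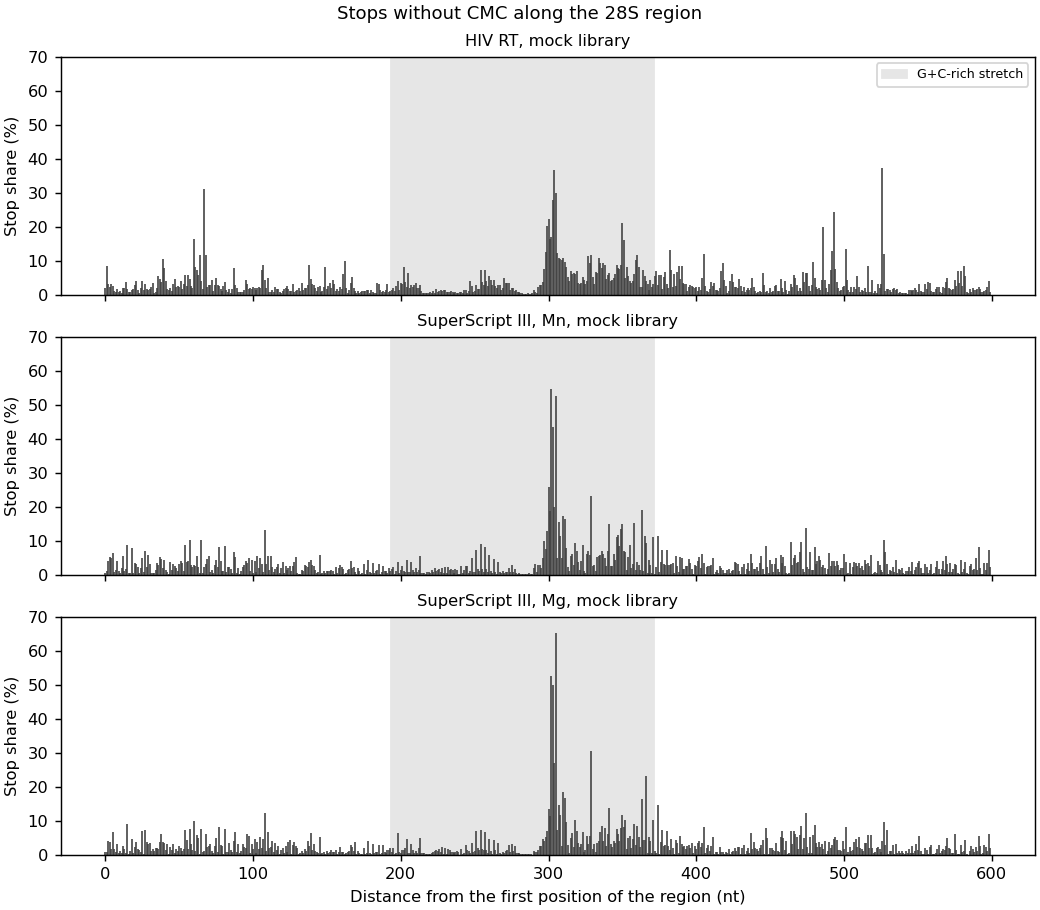
Stop share (percent) at each position of the region in the 3 mock libraries, against the distance from the first position of the region, with the G+C-rich stretch in grey. The C run stands out in all 3 panels, up to 65.4%, and outside the stretch the tallest bars are 37.3% (HIV RT), 13.7% (manganese) and 14.7% (magnesium).

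CMC was then compared with mock at each position by Fisher's exact test, two-sided, on the reads of the 2 libraries. Calls needed a Benjamini-Hochberg adjusted value under 0.05, adjusted over all tested positions of 18S and 28S, and a difference, CMC minus mock, of at least 5 percentage points (points). Such a call compares 2 libraries and not 2 treatments. At these depths the test alone, with no limit on size, passed 324 mutation rises and 173 falls among the 600 positions for HIV RT, so the limit of 5 points sets the counts that follow.

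Mutation rose at few positions. HIV RT had 4 called rises, or 0.667% of the region, where 1.05% of all tested positions of 18S and 28S were called. Of the 89 U, 3 or 3.37% were called, beside 2.33% of the unlisted U in the rest of 28S, among which pseudouridines missing from the list may remain. SuperScript III with manganese had 0 calls, beside 1.29% of all positions and 3.34% of the unlisted U. With magnesium it had 1, at an A, beside 0.159% of all positions and 0.502% of the unlisted U. Falls in mutation were called at 0 positions of the region in each condition, beside 0.101% (HIV RT), 0.332% (manganese) and 0.0868% (magnesium) of all positions. With manganese the test alone passed 433 rises and 87 falls, and with magnesium 348 and 42.

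U2006 and U2004 were the U that rose most in mutation with HIV RT. U2006 was misread in 7.39% of reads with CMC and 0.984% in the mock library, a difference of 6.40 points with a 95% interval of 6.29 to 6.52. With manganese the same U had 1.30% with CMC and 0.111% in the mock library, and with magnesium 0.193% and 0.0580%. U2004 had 6.23% with CMC and 0.802% in the mock library for HIV RT, 1.29% and 0.148% with manganese, and 0.179% and 0.0830% with magnesium. U2140 rose to 5.42% with CMC, against 0.396% in the HIV RT mock library. All 3 are a U followed by G inside a G and U alternation, and each was read mostly as C with CMC in HIV RT, in 5.60%, 4.13% and 4.47% of reads.

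The remaining mutation calls lay beside the C run. G2195 rose by 11.4 points in HIV RT (8.30 to 14.6), with the shares given above, while its differences of 4.21 points with manganese (0.627 to 7.54) and 4.96 points with magnesium (0.300 to 9.25) were under the limit. A2207, just 3′ of the run, rose to 7.78% with CMC, against 2.07% in the mock library, with SuperScript III and magnesium, mostly by reads of C, and had 10.4% with CMC and 6.36% in the mock library for HIV RT. The members nearest the limit were U2140, 5.03 points, and U1954, 4.93 points and not called, in HIV RT. With manganese the nearest was U2426, 4.96 points, with 5.14% with CMC and 0.183% in the mock library.

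Small rises were spread over nearly all U. The median mutation share of the 89 U was 2.01% with CMC and 0.496% in the mock library for HIV RT, 1.01% and 0.134% with manganese, and 0.228% and 0.0565% with magnesium. The difference was above 0 at 88, 89 and 89 of the 89 U. Its median was 1.20, 0.803 and 0.168 points, beside 0.856, 0.734 and 0.138 points at the unlisted U of the rest of 28S. G, the other base that CMC is known to modify, had median differences of 0.300, 0.356 and 0.0551 points. The medians were -0.0688, 0.104 and 0.0162 points at A and -0.112, 0.111 and 0.0623 points at C, so with magnesium C was above G.

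What the enzymes put in at a U also differed. With HIV RT, C made up 60.5% of the mismatched reads at the 89 U with CMC and 40.5% in the mock library. With SuperScript III, C made up 41.7% with CMC and 53.4% in the mock library when manganese was present, and 39.3% and 53.6% with magnesium. G made up 18.2% with CMC and 24.9% in the mock library for HIV RT, 34.3% and 31.6% with manganese, and 36.5% and 23.3% with magnesium. At the unlisted U of the rest of 28S, C made up 59.7% with CMC and 43.0% in the mock library for HIV RT. There it made up 47.2% and 49.4% with manganese, and 53.1% and 50.9% with magnesium. The fall of the C share with magnesium was thus not seen in the rest of 28S, and with manganese it was smaller there. These shares pool reads over the U, so the best covered U weigh most. U2097 stood apart from this pattern and was chosen after its values were seen. It was read mainly as A with CMC, in 3.63% (HIV RT), 3.60% (manganese) and 2.83% (magnesium) of reads, against 0.292%, 0.0951% and 0.109% in the mock libraries.

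Under the limit of 5 points stops changed at more positions than mutations. By the test alone rises were more numerous for stops with HIV RT and for mutation with SuperScript III, with either metal ion. Falls were more numerous for stops in each condition. The stop counts were 350 rises and 193 falls for HIV RT, 287 and 240 with manganese, and 267 and 261 with magnesium. Stop rises were called at 43 positions with HIV RT, or 7.17% of the region, beside 10.1% of all tested positions. They were called at 35 with manganese, or 5.83% beside 8.38%, and at 47 with magnesium, or 7.83% beside 9.22%. U supplied 27, 19 and 38 of them, which is 30.3%, 21.3% and 42.7% of the 89 U, near the 34.5%, 22.0% and 40.1% of unlisted U called in the rest of 28S. Over the 89 U the median stop share was 4.65% with CMC and 1.34% in the mock library for HIV RT, 3.76% and 1.84% with manganese, and 5.99% and 1.61% with magnesium. The median difference was 2.90, 1.09 and 4.07 points, beside 3.00, 1.17 and 3.57 points at the unlisted U of the rest of 28S. With reads pooled over the U of the region, so that well covered U weigh most, the differences were 4.46, 3.82 and 6.58 points.

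**Figure D3:**
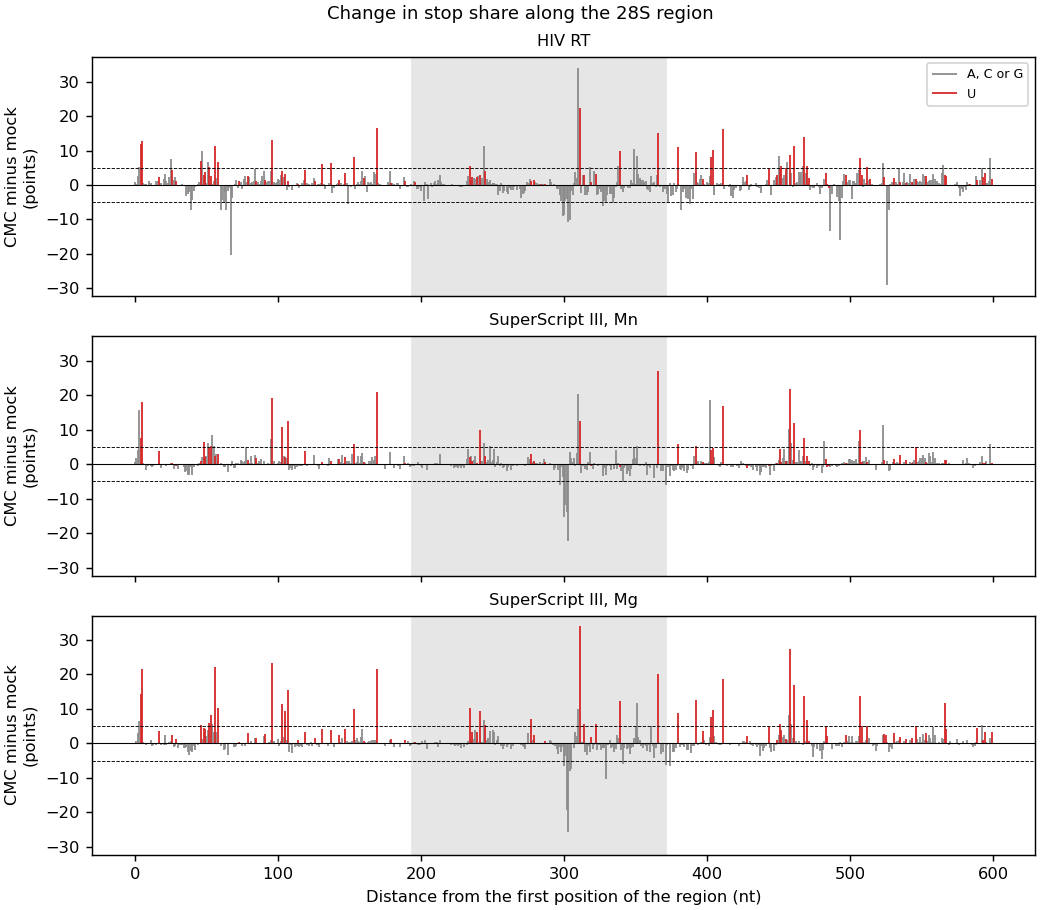
Change in stop share along the region, CMC minus mock in points, for HIV RT, SuperScript III with manganese and SuperScript III with magnesium, with U in red, the other bases in grey, the G+C-rich stretch shaded and the call limit of 5 points dashed. Most tall rises are at U and recur between panels, and the deepest fall outside the stretch, -29.1 points, is in the HIV RT panel.

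U2212, which follows the C run by 6 nt, had the largest stop rise of any U with HIV RT and with SuperScript III and magnesium. Its stop share was 31.9% with CMC and 9.62% in the mock library for HIV RT, 29.2% and 16.5% with manganese, and 50.6% and 16.6% with magnesium. The differences were 22.3 points (20.5 to 24.2), 12.6 points (11.2 to 14.0) and 33.9 points (32.2 to 35.6). Its neighbour C2211 rose in all 3 as well, to 44.6% with CMC, against 10.7% in the mock library, for HIV RT, to 37.6% against 17.3% with manganese, and to 28.4% against 18.4% with magnesium.

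Most other leading U were followed by A and lay outside the lowest coverage. U2070 had a stop share of 17.3% with CMC and 0.922% in the mock library for HIV RT, 21.7% and 0.854% with manganese, and 25.2% and 3.63% with magnesium. U2267, still within the G+C-rich stretch, had 19.0% with CMC and 3.96% in the mock library for HIV RT, 36.3% and 9.46% with manganese, and 43.4% and 23.3% with magnesium. U2359 had 10.5% with CMC and 1.78% in the mock library for HIV RT, 25.1% and 3.36% with manganese, and 34.6% and 7.12% with magnesium. U2369 had 16.7% with CMC and 2.92% in the mock library for HIV RT, a difference of 7.53 points with manganese, and 18.9% and 5.29% with magnesium. U1997, U1906 and U2312 were called in all 3 conditions too, with differences between 12.7 and 23.4 points.

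The base 3′ of a U, which the enzyme copies just before it reaches the U, went with the size of the stop change. At the 13 U followed by A the stop share lay between 8.03% and 19.0% with CMC and between 0.922% and 8.66% in the mock library for HIV RT, and 12 of the 13 were called. With manganese 10 of the 13 were called, and with magnesium 12. Their median difference was 11.2, 12.4 and 18.6 points for HIV RT, manganese and magnesium. For the 26 U followed by C it was 1.37, 0.240 and 1.72 points, for the 37 followed by G 2.90, 1.03 and 3.66 points, and for the 13 followed by U 3.48, 2.25 and 5.51 points. The same order of A first and C last held at the unlisted U of the rest of 28S, where the U followed by A had median differences of 8.89, 7.68 and 11.8 points and 77.6%, 59.2% and 82.7% of them were called. This grouping was chosen with the values known and is a description.

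The exceptions among the 13 were not the same in each condition. U2008 had 9.84% with CMC and 8.66% in the mock library for HIV RT and was not called there, but had 13.1% and 0.684% with manganese and 20.2% and 4.67% with magnesium. U2032 was called with HIV RT only, with 8.03% against 1.95%, and had 0.686% with CMC and 0.0935% in the mock library with manganese, and 4.46% and 0.277% with magnesium. U1957 had 6.24% with CMC and 3.89% in the mock library with manganese, a difference of 2.35 points, beside differences of 11.2 points with HIV RT and 22.2 points with magnesium. U1959, the next U followed by A, was not called with manganese either.

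Mutation had another dependence on the neighbour. With HIV RT the median mutation difference was 2.20 points at the 37 U followed by G, against 0.790 points before A, 0.968 points before C and 0.736 points before U. With manganese the U followed by G had a median of 1.0 points, against 0.780, 0.448 and 0.753 points, and with magnesium the 4 medians lay between 0.137 and 0.183 points. In the rest of 28S the U followed by G had median mutation differences of 1.65, 1.22 and 0.137 points.

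**Figure D4:**
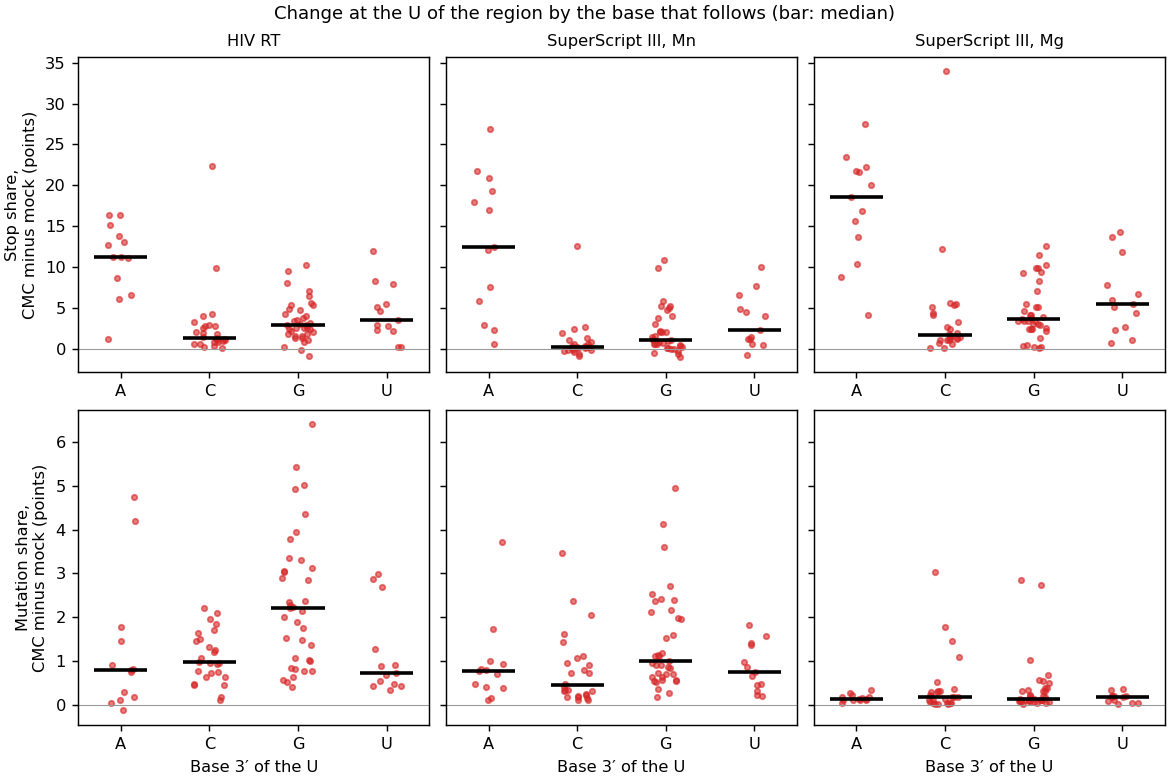
CMC minus mock difference at each of the 89 U of the region by the base that follows it, for stop share (top) and mutation share (bottom) in points, with 1 point per U and the median as a bar. The 13 U before A have the highest stop medians in all 3 conditions, and the U before G the highest mutation median with HIV RT.

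The stops of A, C and G were mostly beside a U. Of the called stop rises at another base, 13 of 16 for HIV RT, 12 of 16 for manganese and 5 of 9 for magnesium lay just 5′ of a U. These were 17.1%, 15.8% and 6.58% of the 76 such positions, against 0.690%, 0.920% and 0.920% of the 435 other A, C and G. C2303, which precedes 2 U, had 23.9% with CMC and 5.22% in the mock library with manganese, but 4.64% and 2.17% with HIV RT and 5.94% and 4.02% with magnesium. G2145, just 5′ of U2146, had 12.6% with CMC and 1.23% in the mock library for HIV RT, 8.74% and 2.57% with manganese, and 9.68% and 2.81% with magnesium. G1904 had 7.45% with CMC and 2.19% in the mock library for HIV RT, 20.9% and 5.09% with manganese, and 10.2% and 3.78% with magnesium. G2358, just 5′ of U2359, was called with manganese, 16.1% against 5.80%, and with magnesium, 13.4% against 5.21%, and had 4.37% with CMC and 4.43% in the mock library for HIV RT. The authors' tables book a stop at 1 position, and whether such a rise belongs to the U or to its 5′ neighbour was not tested. G2252, with 19.7% with CMC and 8.03% in the mock library with magnesium, and C2250, with 19.3% and 8.71% in HIV RT, have no U next to them.

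The 17 U of the G+C-rich stretch were set beside the other 72, with no test of the difference. Stop rises were called at 4, 3 and 9 of the 17, or 23.5%, 17.6% and 52.9%, and at 23, 16 and 29 of the 72, or 31.9%, 22.2% and 40.3%. The median stop difference in the stretch was 2.40, 0.639 and 5.41 points, against 2.91, 1.17 and 4.01 points at the other U. The median mutation difference was 1.51, 1.52 and 0.315 points in the stretch, against 1.01, 0.767 and 0.131 points. With G+C-rich defined at 70% the mutation medians in G+C-rich sequence were 0.952, 0.855 and 0.211 points, and with HIV RT the order turned, as the other U had 1.26 points. U2185, U2188 and U2189, in the pyrimidine-rich part 5′ of the C run, had stop shares of at most 1.0% in every library. U2240 had 14.5% with CMC and 4.63% in the mock library for HIV RT and 14.9% and 2.68% with magnesium, but 1.53% and 2.43% with manganese. These 4 were chosen after their values were seen.

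The 3 conditions shared part of their calls. Of 42 U with a called stop rise in any condition, 14 were called in all 3, 3 with HIV RT alone, 1 with manganese alone and 10 with magnesium alone. The stop difference was larger with HIV RT than with manganese at 67 of the 89 U, with HIV RT than with magnesium at 27, and with manganese than with magnesium at 11. The mutation difference was larger with HIV RT than with manganese at 59 of the 89 U, with HIV RT than with magnesium at 81, and with manganese than with magnesium at 82. Spearman's correlation of the stop difference over the 89 U was 0.633 between HIV RT and manganese, 0.809 between HIV RT and magnesium and 0.737 between manganese and magnesium, given as a description of U that share their libraries and surroundings.

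Stop falls with CMC were called at 18 positions with HIV RT, or 3.00% beside 3.66% of all tested positions. They were called at 7 with manganese, 1.17% beside 1.98%, and at 9 with magnesium, 1.5% beside 1.84%. With a minimum of 1000 crossing reads in place of 100, 2 falls were called with manganese and 4 with magnesium. For HIV RT that minimum left 14 falls. No called fall of the region was at a U. Falls were rare at the unlisted U of the rest of 28S too, at 0% (HIV RT), 0.668% (manganese) and 0.167% (magnesium). In the C run 2 positions, C2204 and C2201, fell in all 3 conditions, and both had under 1000 crossing reads in some libraries. C2204 had 17.1% with CMC and 27.9% in the mock library for HIV RT, 21.4% and 43.6% with manganese, and 24.1% and 49.9% with magnesium. C2201 had 13.6% with CMC and 22.4% in the mock library for HIV RT, 10.5% and 25.9% with manganese, and 7.13% and 13.6% with magnesium. C2230, further 3′, fell to 6.33% with CMC, against 11.6% in the mock library, for HIV RT and to 20.1% against 30.5% with magnesium, and had 20.0% with CMC and 23.1% in the mock library with manganese.

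Outside the stretch HIV RT had 11 of its 18 falls, SuperScript III none with manganese and 1 with magnesium. These were 2.61%, 0% and 0.237% of the 422 positions there. In the rest of 28S without the listed pseudouridines, G+C-rich positions included, the shares were higher, 3.91%, 2.55% and 2.33%. Of the 11, 9 were at G, each shown here for the sequence around it, with the G in capitals.
G1940: gaccccaGaaaaggu
G1961: ugauauaGacagcag
G1965: auagacaGcaggacg
G1968: gacagcaGgacggug
G2050: auggaugGcgcugga
G2283: acgaguaGgagggcc
G2387: gaacuuuGaaggccg
G2394: gaaggccGaagugga
G2427: agcaguuGaacaugg

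G2427 had the largest fall of the region. Its stop share was 8.20% with CMC and 37.3% in the mock library for HIV RT, a difference of -29.1 points (-29.3 to -29.0). The same G had 1.86% with CMC and 0.859% in the mock library with manganese, and 4.60% and 4.13% with magnesium. G1968 had 10.7% with CMC and 31.0% in the mock library for HIV RT, 1.85% and 2.35% with manganese, and 0.821% and 1.04% with magnesium. G2394 had 8.38% with CMC and 24.4% in the mock library for HIV RT, beside at most 4.86% in the SuperScript III libraries. Its near neighbour G2387 had 6.70% with CMC and 20.0% in the mock library for HIV RT. At each of these 4 G the HIV RT mock library had the highest stop share of the 6 libraries and the HIV RT CMC library the next.

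The high G stops of the HIV RT mock library were mostly those of the called falls. Among the 150 G outside the stretch, 11 had a mock stop share of at least 10% in the HIV RT mock library and 1 in each SuperScript III mock library. In both of these it was G2275, whose share was 8.29% with CMC and 14.7% in the mock library with magnesium. The 11 in HIV RT include all of the 9 G that fell except G2050, at 8.20%. A fall of at least 5 points also favours a high mock share, so the 11 largely repeat that list. An A stood on at least 1 side of 8 of the 9 G that fell with HIV RT, or 88.9%, and of 66 of the 150 G, or 44%. In the rest of both rRNAs 131 of the 236 HIV RT stop falls, or 55.5%, were at G, which makes up 34% of the 6335 positions tested there. The HIV RT mock library was also the deepest of the 6, and the part of depth or library preparation in these stops was not tested.

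**Figure D5:**
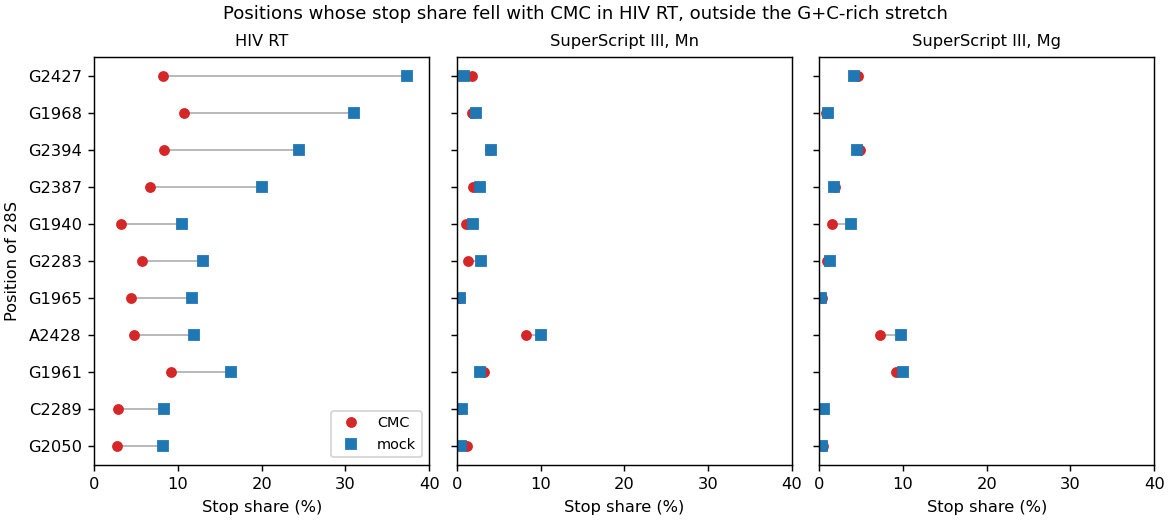
Stop share (percent) with CMC (red circles) and in the mock library (blue squares) at the 11 positions outside the G+C-rich stretch whose stops fell in HIV RT, in the 3 conditions. With HIV RT the mock value lies between 8.20% and 37.3% and above the CMC value at all 11, and with SuperScript III no value passes 10.1%.

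The 3′ part of the region holds 7 nucleotides listed from general knowledge as methylated on the ribose, a modification placed by box C/D guide RNAs that leaves the base-pairing face free. They are C2351, A2363, C2365, A2401, U2415, C2422 and G2424, and the listed base matched the deposited sequence at all 7. The segment is shown with these in capitals, since 2 of them stand just 5′ of a U.
Ribose-methylated segment, positions 2346 to 2429: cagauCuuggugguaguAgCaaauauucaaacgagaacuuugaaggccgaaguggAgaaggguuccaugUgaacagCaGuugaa

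Mutation rises were called at 0.667% (HIV RT), 0% (manganese) and 0.167% (magnesium) of the region. None of the 7 differed by 5 points in mutation in any condition, which at such shares does not set them apart. Their median mock stop share was 2.0% for HIV RT, 4.25% with manganese and 1.92% with magnesium, beside 2.09%, 2.12% and 1.82% for the whole region. C2351 had a stop share of 10.4% with CMC and 2.0% in the mock library for HIV RT and was called there, and had 5.47% and 4.25% with manganese and 4.30% and 1.92% with magnesium. G2424 was called with HIV RT, 9.52% against 3.04%, and with manganese, 15.3% against 4.08%, and had 4.67% with CMC and 2.16% in the mock library with magnesium. Both precede a U. C2365 had the highest mock stop share of the 7, 9.71% with manganese, where its share with CMC was 13.7%.

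The reads behind these shares set their precision. The intervals of differences, CMC minus mock, are 95% Newcombe intervals. Their half-width was at most 0.391 points outside the G+C-rich stretch. It was widest within the stretch, 5.24 points for the stop difference at C2204 with magnesium. At a U it was at most 2.17 points, for the mutation difference at U2189 with magnesium. All of these intervals cover counting error only, since reads amplified by PCR without molecular identifiers are not independent molecules.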

How the data were processed

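For each of 6 libraries the authors deposited a table of 18S rRNA (1869 positions) and of 28S rRNA (5070 positions). Per the file headers each row gives the reference base, the counts of crossing reads, in all and by base, and a number of stops. The deposited mismatch rate and stop frequency are fractions, which were recomputed from the counts within 1e-09 at every position and multiplied into percent. The stop values, whole numbers in the deposited tables, were used as read numbers. Per the submitters' processing notes, Trimmomatic 0.32 and Bowtie 1.0 were used. Their settings and the reference's origin are not given in the sources, so reads with many mismatches may be missing. Positions are those of the deposited sequences and no genome build applies.

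Depth ranged from 21206954 to 47002169 stops per library, and positions needed 100 crossing reads in both libraries of a pair. Fisher's exact tests (SciPy 1.17.1) ran over both rRNAs with Benjamini-Hochberg adjustment, a threshold of 0.05 and a limit of 5 points. The calling was also run on simulated counts at the depths and mock shares of the data, for HIV RT stops and for mutation with magnesium only. Such counts hold no variation between libraries, so they say nothing on the missing replicates. For each condition and measure the text names the 5 called U and the 3 other called bases with the largest rise, the 3 largest falls and the 3 highest mock values, with the lowest coverage, the positions called in all conditions and the methylated nucleotides. Positions named beyond this rule, such as the U followed by A, the 9 G that fell with HIV RT and the U nearest the limit, were chosen after their values were seen. The region, lists and groupings were chosen with earlier results of these data known. The alternatives changed the size limit, read minimum, adjustment, stop placement, averaging and the G+C definition.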

Additional observations from a re-analysis of the deposited data

How the results depend on the processing

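No paired analysis was possible because each group has 1 library and the 3 CMC and mock pairs differ in enzyme or metal ion, so they are not replicates of a condition. With a limit of 2 points the called mutation rises were 35, 29 and 5 (HIV RT, manganese, magnesium) and falls 2, 5 and 2, the stop rises 126, 91 and 104, and the stop falls 72, 30 and 42. With 10 points the mutation rises were 1 with HIV RT and 0 with magnesium, the stop rises 15, 16 and 21, and the stop falls 6, 4 and 3. A minimum of 1000 reads left 2 stop falls with manganese, 4 with magnesium and 0 mutation rises with magnesium, as it removes positions in and beside the C run. HIV RT kept 14 of its 18 stop falls and 3 of its 4 mutation rises. The mutation rise it lost was its largest, at G2195. It gave median mock mutation shares of 0.661%, 0.397% and 0.0890% and mock stop shares of 2.05%, 2.08% and 1.76%. Pooled reads gave mock mutation of 0.753%, 0.778% and 0.136% and mock stops of 2.94%, 2.70% and 2.53%. At U, pooled reads gave mutation differences of 1.77, 0.951 and 0.213 points and stop differences of 4.46, 3.82 and 6.58 points, and unweighted means 1.65, 1.10 and 0.325 points and 4.48, 3.49 and 6.48 points. Defining G+C-rich at 70% gave mutation differences at G+C-rich U of 0.952, 0.855 and 0.211 points, against 1.26 points at other U with HIV RT and 0.134 with magnesium, so with HIV RT the order of the groups turned. It gave stop differences at G+C-rich U of 2.77 (HIV RT) and 0.834 points (manganese), and at other U of 1.26 points with manganese and 3.86 with magnesium. The coverage ratios became 0.249 with CMC and 0.233 in the mock library for HIV RT, 0.293 and 0.188 with manganese, and 0.227 and 0.176 with magnesium. As a ratio of means they were 0.140 and 0.108 for HIV RT and 0.158 and 0.110 with manganese. Reading the stop from the next position 3′ gave -2.39 points at U2212, -0.578 at U2267 and -1.10 at U2312 with HIV RT and 3.45 at C2204 with manganese, and from the next position 5′ -1.20 at U2267 with manganese, by construction values of neighbouring positions. In all, 66 values for the region as a whole were classed as moved. Another 66 were classed as moving by less than a spread that is not defined here. These latter include the HIV RT counts given above for 1000 reads and every count with adjustment over 28S only. Counts with a minimum of 10 reads are among them but are no check, as all positions of the region passed the higher main minimum. Nor are the stop counts with the stop read from a neighbouring position, which only relabels positions. Depth limits the C run most, where coverage is lowest, and no replicate gives the spread between preparations.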
